A study of Homo sapiens with 6 samples.

Results

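The genes described here are 54 protein-coding genes whose products build ribosomes in the nucleolus, taken by gene symbol from the 23227 genes of a count table and each matched by its Ensembl ID. They comprise 8 factors of RNA polymerase I transcription, 4 proteins of box C/D and 4 of box H/ACA small nucleolar ribonucleoproteins (snoRNPs), 5 nucleolar scaffold or shared factors, 17 factors of small ribosomal subunit assembly and 16 of large subunit assembly. RNA was sequenced from MV4-11 cells, a human line established from acute myeloid leukaemia, in 3 libraries of a group titled NC and 3 in which ENO1 (alpha-enolase, an enzyme of glycolysis) was knocked down. The NC libraries are labelled as wild-type cells that received no treatment, and the letters NC are not spelled out in the labels. Whether the NC cells carried a control hairpin is not stated. The knockdown libraries share the same wild-type genotype label, and their column names carry the name of a single hairpin (sh2), so an effect of ENO1 loss and any other effect of that hairpin or of its delivery cannot be told apart. No label ties a library to a separate culture, so the p-values rest on the spread among the 6 libraries, and that spread may be technical.

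Ribosome production starts when RNA polymerase I transcribes ribosomal DNA into a long precursor RNA inside the nucleolus. Small nucleolar RNPs then guide methylation and pseudouridylation of the precursor, while assembly factors fold and cut it and load ribosomal proteins onto what become the small and the large subunit. The genes that encode this machinery are known in many cell types as targets of MYC, a transcription factor that pairs with MAX and binds the E-box, the sequence CACGTG.

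The level of every gene is given in CPM, the gene's read count scaled to the library's effective size after TMM normalisation (trimmed mean of M-values). Total counts were 24778469 to 26373960 in the NC libraries and 20044602 to 21670135 in the knockdown libraries. ENO1 fell from 3262 ± 22.6 to 102 ± 1.25 CPM (SD, n = 3), to 3.13% of the NC level. All 8 myeloid markers searched for (CD33, FLT3, HOXA9, MEIS1, CSF3R, MPO, SPI1 and PTPRC) were detected. Of these 3 were called lower, 4 higher and 1 was not called. Their log2 fold changes ran from -2.61 (MPO) to 1.10 (PTPRC). Of 4 erythroid and 4 epithelial markers, 1 each was in the table and 0 were tested. Of 5 lymphoid markers 4 were in the table and 2 were tested. CD3E and MS4A1 had no read in the NC libraries, and CD79A was called higher at a very low level (0.257 ± 0.174 to 0.833 ± 0.221 CPM, SD, n = 3), whose part in the results was not tested. Mitochondrially encoded genes took 6.69% to 6.88% of counts in the NC libraries and 9.27% to 9.69% in the knockdown libraries, and the part of this shift in the results that follow was not tested. NC 2 and knockdown 3 were each the least like the rest of their group, and counts without them are given where a result turned on them. CPM are relative to each library's total, so a change in RNA content per cell is not seen in them, and in bulk RNA fewer cells of a kind and less RNA per cell cannot be told apart.

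A sequence feature that the choice of genes did not use was more frequent at the start sites of these genes than at those of all tested genes. RefSeq promoter windows of 250 bases before to 50 bases after the start (GRCh38.p14) were found for 48 of the 54 genes. The E-box CACGTG, which reads the same on both strands, was present in 23 of the 48 (47.9%), against 12.5% of the 10540 tested genes with a window and 8.77% of all 27305 genes with one. It lay within 50 bases of the start in 22 of the 48 genes (45.8%), against 5.25% of the tested genes. The sequences from 80 bases before to 30 bases after the start, on the strand of the gene and with the E-box in capitals, are shown for the 5 genes with the lowest and the 1 gene with the highest log2 fold change among those that hold an E-box there, because they place it beside genes that fell and a gene that rose. FBL lies on the minus strand at chr19:39846350-39846459, WDR43 at chr2:28894587-28894696, MRTO4 at chr1:19251725-19251834, NAT10 at chr11:34105549-34105658, DDX21 at chr10:68956567-68956676 and UTP20 at chr12:101280025-101280134, the last 5 on the plus strand.
FBL: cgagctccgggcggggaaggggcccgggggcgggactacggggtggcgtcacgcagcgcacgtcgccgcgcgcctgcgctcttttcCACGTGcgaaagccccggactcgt
WDR43: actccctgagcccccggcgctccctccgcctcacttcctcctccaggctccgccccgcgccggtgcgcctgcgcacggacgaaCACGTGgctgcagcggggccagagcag
MRTO4: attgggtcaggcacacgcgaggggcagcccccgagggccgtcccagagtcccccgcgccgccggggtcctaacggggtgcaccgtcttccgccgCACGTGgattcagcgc
NAT10: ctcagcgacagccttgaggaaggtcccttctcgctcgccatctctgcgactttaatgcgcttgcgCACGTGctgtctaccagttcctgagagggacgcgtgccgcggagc
DDX21: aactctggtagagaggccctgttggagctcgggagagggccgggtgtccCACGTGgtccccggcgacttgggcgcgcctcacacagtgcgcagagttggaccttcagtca
UTP20: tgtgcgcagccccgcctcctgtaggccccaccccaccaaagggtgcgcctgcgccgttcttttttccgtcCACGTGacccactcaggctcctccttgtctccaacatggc

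The plot of E-box positions shows where the motif lay. Of the 48 genes, 16 (33.3%) had it in the 50 bases from the start onwards and 6 (12.5%) in the 50 bases just before the start, against 1.53% and 3.98% of tested genes. No member had it between 150 and 51 bases before the start. A match of these letters is a description of the sequence and does not show that a factor binds there.

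**Figure D1:**
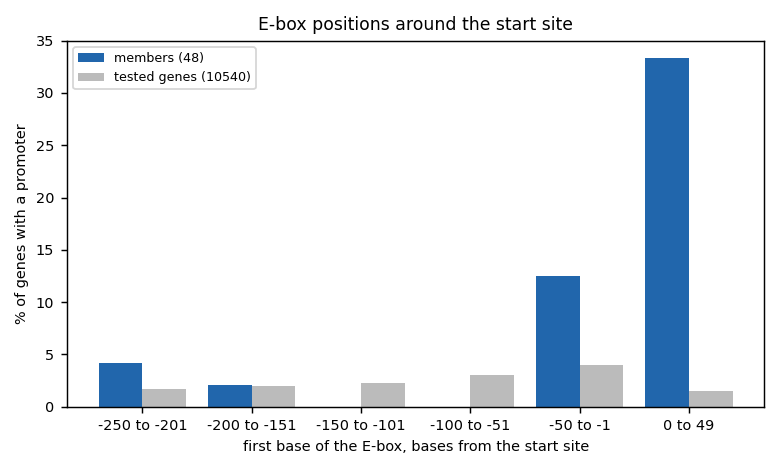
Share of genes (%) with an E-box CACGTG in each 50-base bin, by distance from the RefSeq start site in bases, for the 48 members with a promoter window (blue) and the 10540 tested genes with one (grey). The members' bars are highest in the bin from the start onwards, at 33.3% against 1.53%.

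Most of the machinery was lower after ENO1 knockdown, by modest amounts. In the edgeR quasi-likelihood test at a Benjamini-Hochberg adjusted p of 0.05, 41 of the 54 genes fell, 5 rose and 8 were not called, with a median log2 fold change of -0.22. Changes were frequent across the genome: 30.5% of the 14635 tested genes fell and 29.4% rose, and the median of all genes was 0.00. Among genes with a mean of at least 10 CPM, the level at which 53 of the 54 members lay, 41.0% fell and 31.1% rose, so the members' 41 of 54 (75.9%) was above both background shares. The count of lower members was 35 with upper-quartile scaling or plain library sizes, where NOP58, RRP9, DKC1, HEATR1, NOB1 and PPAN were not called. In 40 genes every knockdown library was below every NC library and in 3 every knockdown library was above, against 32.5% and 31.8% of tested genes. The interquartile range of the members was -0.37 to -0.10, and the member median lay above 29.5% of all tested genes, so many other genes fell further. When the change was required to exceed 1.2-fold (edgeR's glmTreat), 17 members fell and 0 rose, against 15.4% and 16.5% of tested genes. At an unadjusted p of 0.05 that test also gave 0 higher members. DESeq2, which tested for any change at an adjusted p of 0.05, called 3 members higher.

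The fall appeared in each knockdown library. The 54 genes summed to 12340, 12379 and 12280 CPM in the NC libraries and to 9917, 10005 and 10188 CPM in the knockdown libraries. The groups did not overlap, and the sum was 18.6% lower. The median log2 ratio of the members to their NC means was -0.24, -0.25 and -0.21 in knockdown 1, 2 and 3. Among the role groups the summed level was 23.5% lower for the scaffold and shared factors, 21.4% for box C/D proteins, 19.8% for large subunit factors, 15.0% for polymerase I factors, 13.1% for box H/ACA proteins and 7.32% for small subunit factors. These sums are led by the most abundant genes and were not tested.

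**Figure D2:**
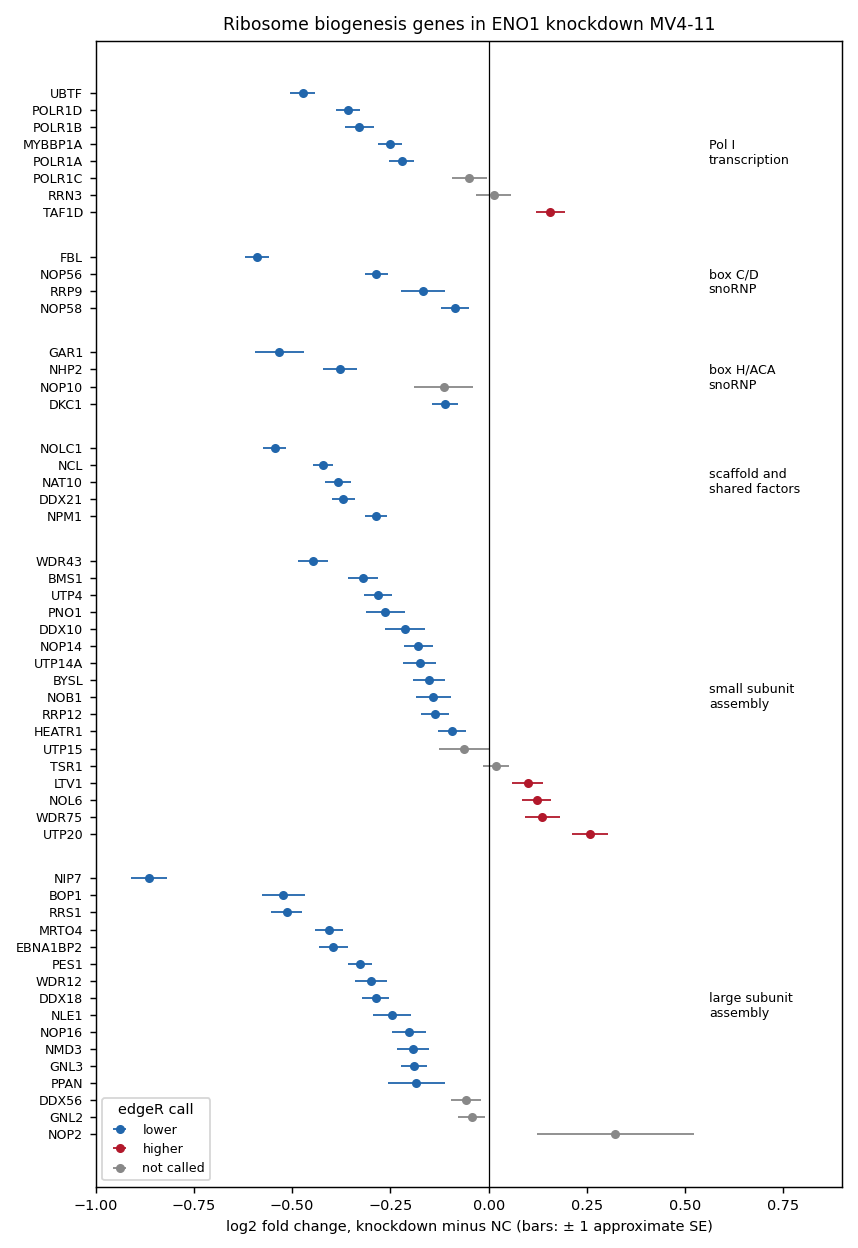
Log2 fold change (knockdown minus NC) of each of the 54 genes by role group, with bars of ± 1 approximate SE and colours for the edgeR call. NIP7 lies furthest to the left at -0.86, and the 4 small subunit factors called higher lie between 0.10 and 0.26.

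**Figure D3:**
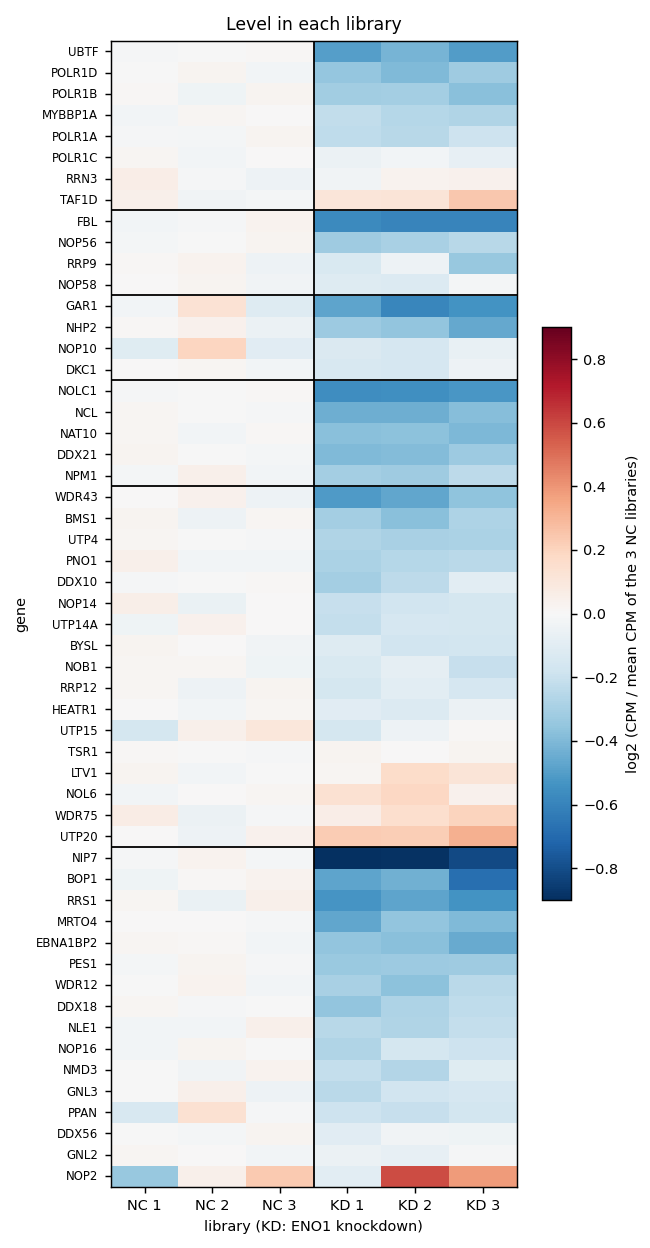
Log2 ratio of CPM to the mean of the 3 NC libraries for each gene (rows, in role order) in each of the 6 libraries (columns; KD is ENO1 knockdown). The knockdown columns are blue for most genes, while UTP20, TAF1D, NOL6, WDR75, LTV1 and TSR1 lie above the NC mean in all 3, some by little.

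Of the 8 polymerase I transcription factors, 5 fell, 1 rose and 2 were not called (median -0.24). The level of UBTF was 271, 273 and 275 CPM in the NC and 193, 204 and 193 CPM in the knockdown libraries. UBTF, which binds ribosomal DNA and keeps it open for transcription, was thus lower in every knockdown library (log2 fold change -0.47 ± 0.03 SE, edgeR adjusted p = 6.75e-13). POLR1D stood at 313, 319 and 307 CPM in NC 1 to 3 and at 245, 237 and 250.2 CPM in knockdown 1 to 3. POLR1D, a subunit shared by RNA polymerases I and III, also separated the groups (log2 fold change -0.36 ± 0.03 SE, edgeR adjusted p = 1.27e-10). The catalytic subunits POLR1A, the largest of the enzyme, and POLR1B, the second largest, had log2 fold changes of -0.22 and -0.33 (edgeR adjusted p = 1.12e-06 and 1.86e-08). MYBBP1A, a nucleolar protein that associates with RNA polymerase I, fell by 16.0% (log2 fold change -0.25 ± 0.03 SE, edgeR adjusted p = 5.88e-08).

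A single polymerase I factor moved the other way. TAF1D measured 175, 166 and 168 CPM in NC and 183, 183 and 201 CPM in knockdown libraries. TAF1D, a subunit of the SL1 complex that recruits the polymerase to the ribosomal DNA promoter, was higher in every knockdown library (log2 fold change 0.16 ± 0.04 SE, edgeR adjusted p = 0.000665). It stayed called when any 1 library was left out, with adjusted p from 0.000557 to 0.00775. TAF1D holds 8 small nucleolar RNA genes, the most of any member. The level of RRN3 was 82.0, 78.1 and 76.4 CPM in the NC and 77.2, 80.5 and 81.0 CPM in the knockdown libraries. RRN3, which links the polymerase to SL1, overlapped between groups (log2 fold change 0.01 ± 0.04 SE, edgeR adjusted p = 0.822), and 24.95% of its 50-base stretches also occur in other genes, so its count is uncertain. POLR1C stood at 67.4, 65.4 and 66.8 CPM in NC 1 to 3 and at 64.2, 65.5 and 63.2 CPM in knockdown 1 to 3. POLR1C, the partner of POLR1D, also overlapped (log2 fold change -0.05 ± 0.04 SE, edgeR adjusted p = 0.348).

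All 4 box C/D snoRNP proteins were called lower (median -0.23), with sizes that ranged from -0.59 to -0.09. FBL measured 394, 397 and 409 CPM in NC and 269, 265 and 265 CPM in knockdown libraries. FBL, the fibrillarin methyltransferase that modifies the ribose of ribosomal RNA, was 33.5% lower with no overlap (log2 fold change -0.59 ± 0.03 SE, edgeR adjusted p = 9.43e-16). The level of NOP56 was 457, 461 and 471 CPM in the NC and 370.0, 379 and 390.0 CPM in the knockdown libraries. NOP56, a core protein of the same particle, also had every knockdown library below every NC library (log2 fold change -0.29 ± 0.03 SE, edgeR adjusted p = 2.86e-09). The other core protein, NOP58, had 156, 158 and 152 CPM in NC and 143, 142 and 153 CPM in knockdown libraries. Knockdown 3 overlapped the NC libraries (log2 fold change -0.09 ± 0.04 SE, edgeR adjusted p = 0.0426). The call on NOP58 ended when any 1 of 5 libraries (NC 1, NC 2, NC 3, knockdown 1 or knockdown 2) was left out, with edgeR adjusted p from 0.000685 to 0.170. RRP9, which binds the U3 snoRNA, had 81.8, 82.8 and 78.5 CPM in NC and 73.6, 78.7 and 64.1 CPM in knockdown libraries, with knockdown 3 lowest. Its groups overlapped (log2 fold change -0.17 ± 0.06 SE, edgeR adjusted p = 0.0158), and its call ended without NC 1, NC 2 or knockdown 3 (edgeR adjusted p from 0.00111 to 0.0691 and log2 fold change from -0.24 to -0.09 over the libraries left out). Without the 2 libraries that stood apart it was -0.07 (edgeR adjusted p = 0.173).

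Of the 4 box H/ACA proteins, which form the pseudouridine-making particle and the core of telomerase RNP, 3 fell and 1 was not called (median -0.25). GAR1 stood at 44.8, 49.9 and 42.1 CPM in NC 1 to 3 and at 32.8, 30.3 and 31.4 CPM in knockdown 1 to 3. GAR1 was thus 30.9% lower (log2 fold change -0.53 ± 0.06 SE, edgeR adjusted p = 2.75e-08). NHP2 measured 103, 105 and 99.1 CPM in NC and 81.9, 80.1 and 74.8 CPM in knockdown libraries. NHP2 fell as well (log2 fold change -0.38 ± 0.04 SE, edgeR adjusted p = 2.02e-08); 27.4% of its exonic bases overlap RMND5B, and the strand setting of the counting is not given. DKC1, the pseudouridine synthase itself, fell by 7.40% (log2 fold change -0.11 ± 0.03 SE, edgeR adjusted p = 0.00587). Its log2 fold change was -0.06 with plain library sizes and -0.07 with upper-quartile scaling or a filter at 5 CPM in 3 libraries, and it was not called in any of the 3. The level of NOP10 was 84.5, 104 and 84.7 CPM in the NC and 83.0, 82.1 and 87.0 CPM in the knockdown libraries. NOP10, the smallest of the 4, had its highest value in NC 2 and overlapped between groups (log2 fold change -0.11 ± 0.07 SE, edgeR adjusted p = 0.218). It was called lower without NC 1 (-0.17) and with no filter on low counts (-0.14, edgeR adjusted p = 0.00495). Over the libraries left out its log2 fold change ran from -0.17 to -0.01 and its edgeR adjusted p from 0.0480 to 0.873.

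The 5 nucleolar scaffold and shared factors all fell without overlap, with the lowest median of the 6 role groups (-0.38). NOLC1 stood at 408, 411 and 415 CPM in NC 1 to 3 and at 279, 281 and 286 CPM in knockdown 1 to 3. NOLC1, a phosphoprotein that chaperones snoRNPs, was 31.4% lower (log2 fold change -0.54 ± 0.03 SE, edgeR adjusted p = 3.50e-15). NCL measured 2373, 2343 and 2333 CPM in NC and 1729, 1733 and 1799 CPM in knockdown libraries. NCL, nucleolin, which binds nascent precursor RNA and was the most abundant member in CPM, was 25.4% lower (log2 fold change -0.42 ± 0.02 SE, edgeR adjusted p = 3.44e-14). The level of NPM1 was 1321, 1376 and 1312 CPM in the NC and 1079, 1073 and 1132 CPM in the knockdown libraries. NPM1, nucleophosmin, a scaffold of the outer nucleolus and a gene often mutated in acute myeloid leukaemia, was 18.1% lower (log2 fold change -0.29 ± 0.03 SE, edgeR adjusted p = 9.12e-10), with 18.9% of its 50-base stretches shared with other genes. DDX21, an RNA helicase that joins polymerase I transcription to processing, had 658, 646 and 639 CPM in NC and 491, 495 and 518 CPM in knockdown libraries. It fell in all 3 knockdown libraries (log2 fold change -0.37 ± 0.03 SE, edgeR adjusted p = 9.23e-12). NAT10, the enzyme that acetylates cytidine in ribosomal RNA, fell by 23.3% (log2 fold change -0.38 ± 0.03 SE, edgeR adjusted p = 4.93e-11).

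**Figure D4:**
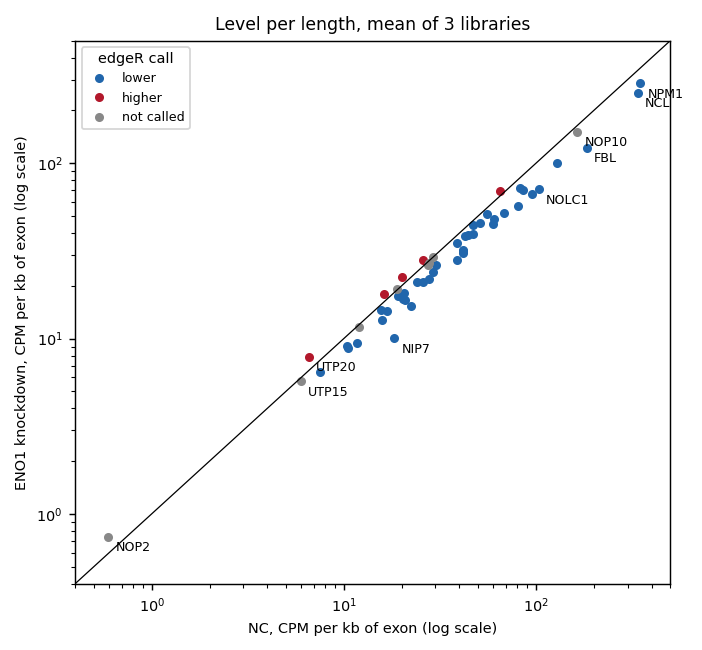
Mean level per kilobase of annotated exon (CPM per kb, n = 3, log scales) in NC (x) and ENO1 knockdown (y) libraries; the line marks equal levels. The NC levels run from 0.594 (NOP2, whose count is uncertain) to 349 CPM per kb (NPM1). Most points lie below the line, NIP7 furthest, while NOP2, which was not called, and UTP20 lie above it.

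Per kilobase of exon, the members spanned a wide range in the NC libraries. The length used pools all annotated exons of a gene and can exceed that of the transcript expressed, so comparison between genes is approximate. NPM1 (349 CPM per kb) and NCL (339) were highest, followed by FBL (184) and NOP10 (164). The lowest were UTP15 (5.97) and NOP2 (0.594). The count of NOP2 is uncertain, because 54.4% of its exonic bases overlap another gene. The NC libraries of FBL (182 to 188) and NOP10 (153 to 187) overlapped, as did those of 28 of the 53 pairs of neighbours in this order, so the order of such pairs is not resolved. Across the 54 genes the log2 fold change was lower where the NC level was higher (Spearman's rho = -0.42, Pearson's r = -0.43 against log10 CPM). This is a description across genes of the same 6 libraries, and genes are not independent replicates.

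Small subunit assembly held 4 of the 5 members called higher: of 17 factors 11 fell, 4 rose and 2 were not called (median -0.14). The 23.5% that rose was below the share of all tested genes (29.4%) and of genes with a mean of at least 10 CPM (31.1%). The 64.7% that fell was above the matching shares of 30.5% and 41.0%. WDR43 stood at 173, 177 and 167 CPM in NC 1 to 3 and at 121, 124 and 134 CPM in knockdown 1 to 3. WDR43, one of the t-UTP proteins that bind the precursor first and are also needed for its transcription, was 26.6% lower (log2 fold change -0.45 ± 0.04 SE, edgeR adjusted p = 8.42e-11). BMS1 measured 125, 119.5 and 125 CPM in NC and 99.6, 95.1 and 101 CPM in knockdown libraries. BMS1, a GTPase of the early small subunit particle, was also lower in every knockdown library (log2 fold change -0.32 ± 0.04 SE, edgeR adjusted p = 6.16e-08), with 11.3% of its 50-base stretches shared with other genes. Of the 5 t-UTP genes among the members 3 fell, 1 rose and 1 was not called. UTP4 fell by 17.7% (log2 fold change -0.28 ± 0.03 SE, edgeR adjusted p = 7.63e-08). HEATR1, the largest of them, had 142, 139 and 143 CPM in NC and 131, 129.8 and 136 CPM in knockdown libraries. The groups did not overlap (log2 fold change -0.09 ± 0.04 SE, edgeR adjusted p = 0.0249), but the call ended without NC 1, NC 3, knockdown 1 or knockdown 2 (edgeR adjusted p from 0.00178 to 0.0953 over the libraries left out). The level of UTP15 was 33.9, 38.9 and 40.5 CPM in the NC and 33.8, 36.6 and 38.0 CPM in the knockdown libraries. UTP15 overlapped between groups (log2 fold change -0.06 ± 0.06 SE, edgeR adjusted p = 0.424).

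WDR75 stood at 86.0, 79.3 and 81.5 CPM in NC 1 to 3 and at 85.6, 91.5 and 94.3 CPM in knockdown 1 to 3. WDR75, the t-UTP gene that was called higher, overlapped by NC 1 (log2 fold change 0.14 ± 0.04 SE, edgeR adjusted p = 0.0104), and the call ended without NC 2 (edgeR adjusted p from 0.00299 to 0.0730 over the libraries left out). UTP20 measured 66.0, 63.8 and 67.5 CPM in NC and 77.2, 76.6 and 82.1 CPM in knockdown libraries. UTP20, a large scaffold protein of the small subunit precursor, had every knockdown library above every NC library, was 19.6% higher (log2 fold change 0.26 ± 0.05 SE, edgeR adjusted p = 1.85e-05) and stayed called when any 1 library was left out. The level of NOL6 was 150.2, 153 and 155 CPM in the NC and 168, 174 and 157 CPM in the knockdown libraries. NOL6, a component of the same precursor, did not overlap (log2 fold change 0.12 ± 0.04 SE, edgeR adjusted p = 0.00601), but its call ended without NC 1 or knockdown 2 (edgeR adjusted p from 1.53e-05 to 0.0745). LTV1 stood at 122, 117 and 119 CPM in NC 1 to 3 and at 121, 134 and 129 CPM in knockdown 1 to 3. LTV1, a late factor, overlapped (log2 fold change 0.10 ± 0.04 SE, edgeR adjusted p = 0.0335), and its call ended without NC 1, NC 2, NC 3 or knockdown 2 (edgeR adjusted p from 0.00571 to 0.231, log2 fold change from 0.06 without knockdown 2 to 0.14 without knockdown 1). Of the 5 members that rose, 2 (TAF1D and UTP20) kept the call whichever library was left out. The count of members called higher fell to 3 without NC 1, without NC 2 or without knockdown 2, and to 3 without the 2 libraries that stood apart. In that last fit WDR75 and LTV1 (log2 fold change 0.08 for each) were not called (edgeR adjusted p = 0.128 and 0.0898). DESeq2 did not call WDR75 or LTV1 either (DESeq2 adjusted p = 0.0613 and 0.153).

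Among the late factors that finish the small subunit, 3 of 5 fell and 1, LTV1, rose. PNO1 measured 56.1, 53.4 and 53.3 CPM in NC and 44.5, 45.3 and 45.9 CPM in knockdown libraries. PNO1, which holds the precursor's end until the last cut, was 16.6% lower (log2 fold change -0.26 ± 0.05 SE, edgeR adjusted p = 4.87e-05). The level of NOB1 was 82.9, 83.0 and 79.5 CPM in the NC and 74.4, 77.5 and 70.7 CPM in the knockdown libraries. NOB1, the nuclease that makes that cut, fell by 9.31% (log2 fold change -0.14 ± 0.04 SE, edgeR adjusted p = 0.00806) but was not called without the 2 libraries that stood apart (-0.10, edgeR adjusted p = 0.0655). BYSL stood at 98.0, 96.2 and 94.3 CPM in NC 1 to 3 and at 88.9, 85.2 and 85.8 CPM in knockdown 1 to 3. BYSL fell by 9.94% (log2 fold change -0.15 ± 0.04 SE, edgeR adjusted p = 0.002). TSR1 measured 162, 160.5 and 159.7 CPM in NC and 163, 161 and 164 CPM in knockdown libraries. TSR1, a GTPase-like factor that blocks early joining of the subunits, gave overlapping groups (log2 fold change 0.02 ± 0.03 SE, edgeR adjusted p = 0.64). The remaining small subunit factors all fell: the helicase DDX10 (-0.21), NOP14 (-0.18), UTP14A (-0.18) and RRP12 (-0.14), with edgeR adjusted p = 0.000811, 0.000126, 0.000895 and 0.00141. The level of DDX10 was 64.4, 64.7 and 65.3 CPM in the NC and 52.3, 54.9 and 60.6 CPM in the knockdown libraries, so the groups did not overlap.

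Of the 16 large subunit factors 13 fell and 3 were not called (median -0.27). NIP7 stood at 86.3, 88.6 and 85.6 CPM in NC 1 to 3 and at 46.7, 47.0 and 49.4 CPM in knockdown 1 to 3. NIP7, which acts in precursor RNA processing for the large subunit, had the lowest log2 fold change of the 54 genes and was 45.1% lower (log2 fold change -0.86 ± 0.05 SE, edgeR adjusted p = 2.84e-15); 20.2% of its exonic bases overlap COG8. RRS1 measured 139.5, 132 and 143 CPM in NC and 95.7, 99.6 and 94.96 CPM in knockdown libraries. RRS1, which helps bring the 5S RNA particle into the subunit, was 29.97% lower (log2 fold change -0.51 ± 0.04 SE, edgeR adjusted p = 6.92e-12). MRTO4, which holds the place of the ribosomal stalk, and EBNA1BP2, an early assembly factor, fell by 24.5% and 24.0% (log2 fold changes -0.41 and -0.40, edgeR adjusted p = 1.50e-10 and 4.64e-10).

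All 3 members of the PeBoW complex, which is needed to process the precursor of the large subunit RNA, fell without overlap, and their summed level was 24.98% lower. The level of PES1 was 271, 279.7 and 273 CPM in the NC and 218, 219 and 219.8 CPM in the knockdown libraries. PES1 varied little within groups (log2 fold change -0.33 ± 0.03 SE, edgeR adjusted p = 4.53e-10). BOP1 stood at 347, 358 and 363 CPM in NC 1 to 3 and at 256, 264 and 223 CPM in knockdown 1 to 3. BOP1 was 30.5% lower, and knockdown 3 was its lowest library (log2 fold change -0.52 ± 0.05 SE, edgeR adjusted p = 1.09e-05). WDR12 measured 106, 108 and 104 CPM in NC and 86.7, 82.4 and 89.9 CPM in knockdown libraries. WDR12 was 18.7% lower (log2 fold change -0.30 ± 0.04 SE, edgeR adjusted p = 5.04e-07).

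The helicases and GTPases of the nucleolus were less uniform. The level of DDX18 was 231, 227 and 228 CPM in the NC and 178, 189 and 195 CPM in the knockdown libraries. DDX18, a helicase of early large subunit assembly, fell by 18.0% (log2 fold change -0.29 ± 0.03 SE, edgeR adjusted p = 4.24e-08). DDX56 stood at 111, 109.8 and 113 CPM in NC 1 to 3 and at 104, 109 and 108 CPM in knockdown 1 to 3. DDX56, another helicase, had every knockdown library below every NC library by a small margin and was not called (log2 fold change -0.06 ± 0.04 SE, edgeR adjusted p = 0.206). GNL3 measured 275, 283 and 267 CPM in NC and 232, 244 and 247 CPM in knockdown libraries. GNL3, nucleostemin, a GTPase abundant in stem and tumour cells, fell by 12.3% (log2 fold change -0.19 ± 0.03 SE, edgeR adjusted p = 1.75e-05). The level of GNL2 was 162, 160.2 and 157 CPM in the NC and 154, 152 and 159 CPM in the knockdown libraries. GNL2, a GTPase of the nucleolar large subunit particle, overlapped between groups (log2 fold change -0.04 ± 0.03 SE, edgeR adjusted p = 0.282). Among the others, NLE1 (-0.25), NOP16 (-0.20) and NMD3, the export adaptor of the large subunit (-0.19), fell with edgeR adjusted p = 9.29e-05, 0.000193 and 0.000224.

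PPAN and NOP2 are uncertain, because 59.8% and 54.4% of their exonic bases overlap a readthrough gene or neighbour, and how shared reads were counted is not given. PPAN stood at 24.3, 29.5 and 26.5 CPM in NC 1 to 3 and at 23.5, 23.2 and 23.9 CPM in knockdown 1 to 3. PPAN, a large subunit factor, was called lower (log2 fold change -0.18 ± 0.07 SE, edgeR adjusted p = 0.0298), but not without NC 2, NC 3, knockdown 1 or knockdown 2 (edgeR adjusted p from 0.00634 to 0.231, log2 fold change from -0.26 to -0.11, the latter without NC 2). Without the 2 libraries that stood apart PPAN was at -0.12 and not called (edgeR adjusted p = 0.206). NOP2 measured 2.20, 2.87 and 3.28 CPM in NC and 2.60, 4.17 and 3.64 CPM in knockdown libraries. NOP2, a methyltransferase of the large subunit RNA, had overlapping groups at a level far below the other members (log2 fold change 0.32 ± 0.20 SE, edgeR adjusted p = 0.168), and it was called higher without knockdown 1 (edgeR adjusted p from 0.0425 to 0.565). Without the 6 members that share over 10% of their 50-base stretches with other genes (RRN3, NPM1, BMS1, LTV1, NOP2 and PPAN), 38 of 48 fell and 4 rose (median -0.23). Exons of 15 members overlapped other genes by over 10%, among them LTV1 (34.8%), NHP2 (27.4%) and HEATR1 (23.2%). With members of that kind left out as well, 28 of 36 fell and 4 rose (median -0.24).

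MYC fell from 566 ± 7.97 to 313 ± 6.27 CPM and its partner MAX from 102 ± 0.933 to 51.4 ± 1.74 CPM (SD, n = 3; log2 fold changes -0.86 and -0.99, edgeR adjusted p = 1.49e-19 and 5.61e-17). Within the members, the 23 with an E-box in the promoter window had a median log2 fold change of -0.25 and 17 fell, and the 25 without had a median of -0.20 and 18 fell. NIP7, with the lowest fold change of all members, had a window without the motif, and FBL, the next lowest, had one with it. Of the members that rose, UTP20, NOL6 and LTV1 had a window with the motif, and TAF1D and WDR75 had one without. The difference between members with and without an E-box was not tested, and neither was the part of MYC or MAX in the members' levels. Of 4 other motifs searched on both strands, CCGGAAGT was in 11 of 48 windows (22.9% against 10.1% of tested genes), AAGATGGC in 2 (4.17% against 6.42%), the palindromic NRF1 motif in 4 (8.33% against 2.69%) and the palindromic BANP motif in 1 (2.08% against 1.05%). The members with CCGGAAGT had a median of -0.18 and 6 of the 11 fell.

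Small nucleolar RNAs, the guides of the snoRNPs, are often encoded inside introns of ribosome-related genes. Of the 54 members 10 (18.5%) hold 36 annotated snoRNA genes, against 1.76% of 12050 tested protein-coding genes. TAF1D holds 8, GNL3 6, NOP56 5 and NOP58 4. Of these 10 host genes 7 fell, with a median of -0.15, and of the 44 other members 34 fell, with a median of -0.25. Of all 212 tested protein-coding genes that hold a snoRNA, 46.2% fell. The share was 30.5% among all tested genes and 41.0% among those with a mean of at least 10 CPM. The snoRNAs themselves were not analysed here.

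Other genes of the pathway, listed by role but with earlier results of these data known, moved mostly the same way. Of 140 listed factors 137 were tested: 85 (62.0%) fell, 9 (6.57%) rose and the median was -0.16. Among all tested genes 30.5% fell and 29.4% rose. At a mean of at least 10 CPM, where 131 of the 137 lay, 41.0% of genes fell and 31.1% rose. Lower calls were made for 8 of 13 further polymerase I factors with 5 not called, 6 of 10 snoRNP factors with 2 higher, 27 of 47 small subunit factors with 4 higher, 33 of 50 large subunit factors with 2 higher and 11 of 17 processing nucleases with 1 higher. The level of SBDS was 58.5, 57.9 and 57.9 CPM in the NC and 18.2, 22.5 and 24.1 CPM in the knockdown libraries. SBDS, which releases the joining block from the large subunit and shares 11.8% of its 50-base stretches with its pseudogene, had the lowest log2 fold change of these genes (log2 fold change -1.43 ± 0.07 SE, edgeR adjusted p = 1.39e-14). It was followed by POLR1H, a polymerase I subunit (-0.74), and RSL24D1, a placeholder protein on the large subunit (-0.61; edgeR adjusted p = 9.89e-08 and 6.53e-14). NOL11 stood at 72.8, 69.4 and 72.1 CPM in NC 1 to 3 and at 105, 103 and 113 CPM in knockdown 1 to 3. NOL11, a t-UTP protein of the small subunit, rose most (log2 fold change 0.59 ± 0.04 SE, edgeR adjusted p = 3.91e-12), ahead of ZNHIT6, a snoRNP assembly factor (0.44), and RIOK3, a kinase of small subunit maturation (0.25; edgeR adjusted p = 1.60e-08 and 0.00011).

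The RNA of the genes for the ribosomal proteins that these factors assemble fell by a similar median. Cytosolic ribosomal proteins numbered 79 genes, of which 57 (72.2%) were called lower and 1 (1.27%) higher. Of all tested genes 30.5% were lower and 29.4% higher. Of genes with a mean of at least 10 CPM 41.0% were lower and 31.1% higher. The median of the 79 genes was -0.22, the value also found for the 54 members. The distribution plot shows both sets to the left of all genes through most of their range. Whether the sets differ was not tested.

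**Figure D5:**
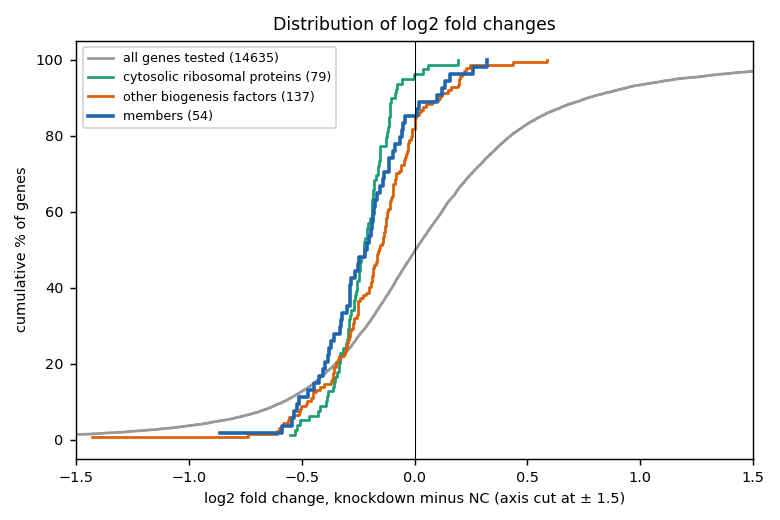
Cumulative share of genes (%) against log2 fold change (knockdown minus NC) for the 54 members, 137 other biogenesis factors, 79 cytosolic ribosomal proteins and all 14635 tested genes. The median is -0.22 for the members and for ribosomal proteins, -0.16 for the other factors and 0.00 for all genes, while the lower tail of all genes reaches further left than that of the members.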

How the data were processed

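RNA sequencing libraries (Illumina TruSeq, total RNA, per the labels' protocols) were made from 6 MV4-11 samples, 3 per group. Reads were aligned with HISAT2 2.0.5 to hg38, per the submitters' processing notes. The sources used here do not name the counting program, its annotation or its strand setting. The authors deposited raw counts per gene for 23227 Ensembl IDs, of which 23211 had a symbol in GENCODE release 29. Columns were assigned to samples through the group and number that each name carries.

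Genes were filtered with filterByExpr (14635 kept), scaled by TMM and fitted over the 6 libraries with edgeR 4.0.16 (robust glmQLFit, glmQLFTest; R 4.3.3), with Benjamini-Hochberg adjustment over all genes tested and a threshold of 0.05. SE were derived from the fold change and its F statistic and are approximate. No libraries were identical. Chi-square per degree of freedom was 1.92 to 3.34 within groups and 48.3 to 52.2 between them. Lists are described by counts and medians, with no test. The members, lists and role groups were chosen with earlier results of these data known, and the motifs after the files had been seen. The functions were tested on simulated data.

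Every member could be named. Values in each library were given by rule for the 2 smallest adjusted p in each role group, every member called higher, and every member of the PeBoW, t-UTP, late small subunit, helicase and GTPase subgroups, and were added for others after their values were seen. Outside the members, ENO1, MYC, MAX and the 3 lowest and 3 highest called pathway genes were named. Exon overlap and shared 50-base stretches were computed from GENCODE 29 on GRCh38. The promoter table (RefSeq, GRCh38.p14) gave no window for DDX18, NOP58, BOP1, RRS1, NOLC1 and RRP12. Alternatives were other scalings and filters, DESeq2 1.42.0, limma-voom 3.58.1, glmTreat, a replicate block and leaving out each library, and, added after seeing the data, leaving out the 2 libraries that stood apart and a GC and length trend (mgcv 1.9.3).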

Additional observations from a re-analysis of the deposited data

How the results depend on the processing

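Of the 41 members called lower, 37 stayed called whichever 1 library was left out and 17 stayed called in every alternative run, glmTreat included. Over the libraries left out in turn, 38 to 40 members were lower, 3 to 6 higher and the member median was -0.24 to -0.20. Lower calls numbered 35 with upper-quartile scaling or plain library sizes, 36 with the 5 CPM filter, 42 with no filter, 39 with DESeq2 and 38 without the 2 libraries that stood apart. The median was -0.18 with upper-quartile scaling, -0.16 with plain library sizes, -0.24 with no filter, -0.18 with a filter at 5 CPM in 3 libraries, -0.25 without the 2 libraries that stood apart and -0.22 with a GC and length trend. With glmTreat 17 members were lower and 0 higher, and 3 were higher with DESeq2 or without the 2 libraries that stood apart. Of the other pathway genes, 14 were higher with upper-quartile scaling, plain library sizes or the 5 CPM filter, and with glmTreat 25 were lower and 2 higher. The cause of these shifts was not tested, except that glmTreat asks for a larger change. TMM factors, which plain library sizes leave out, were 0.977 to 0.984 in the NC libraries and 1.016 to 1.022 in the knockdown libraries.

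Uncalled members changed sign near 0: POLR1C (0.0033) and GNL2 (0.0099) with plain library sizes, RRN3 (-0.011) and TSR1 (-0.0043) with no filter, and RRN3 also without the 2 libraries that stood apart (-0.0080) and from -0.0093 to 0.036 over the libraries left out. The replicate numbers gave no sign of pairing (correlation of deviations 0.00289, 0.00917 and -0.0225 for numbers 1, 2 and 3). Unlike numbers gave -0.0352 to 0.0313, and so few libraries cannot exclude a pairing. With a replicate block 40 members were lower and 4 higher, with a median of -0.22, and NOP58 and LTV1 (adjusted p = 0.0776 and 0.0630 in edgeR) were no longer called. NOP2, at 2.20 to 4.17 CPM the least deeply counted member, had an SE of 0.20.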
